A study of Mus musculus with 2 samples.

Results

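Hepatocytes take bile salts and other organic anions up from the blood across the sinusoidal membrane and pump them, with phospholipid and cholesterol, into the bile canaliculus. The mRNA of 10 carriers of this route was followed here, out of 19465 genes in the count tables. The members were chosen by gene symbol, with earlier results of these data known. They comprise 5 uptake carriers (Slc10a1, Slco1a1, Slco1a4, Slco1b2 and Slco2b1) and 5 canalicular exporters (Abcb11, Abcc2, Abcb4, Abcg5 and Abcg8). All 10 were found and passed every filter on low counts. RNA was measured by 10x Visium spatial transcriptomics in 1 liver section of 5 μm from an AEG-1-WT mouse and 1 from an AEG-1-C75S mouse. Both were naïve, untreated females of 8 weeks and littermates from a heterozygote by heterozygote mating, sampled from the same lobe. AEG-1, encoded by Mtdh, carries a palmitate on a cysteine that the CRISPR/Cas9 knock-in of the AEG-1-C75S mouse replaces with serine, in every cell of the body. The sections are called WT and C75S below. With 1 animal of each genotype, differences between the genotypes cannot be told apart from differences between the animals, their lobule sampling or their libraries, and no test between genotypes was possible.

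Bile salts recirculate between gut and liver, so the blood reaching the lobule at the portal tract is richest in them, and periportal hepatocytes remove a large part before the blood reaches the central vein. Slc10a1 (NTCP) takes up conjugated bile salts together with sodium, and the Slco carriers (OATPs) take up unconjugated bile salts, bilirubin, steroid conjugates and drugs without sodium. On the canalicular side Abcb11 (BSEP) exports bile salts, Abcc2 (MRP2) exports bilirubin glucuronides and other conjugates, Abcb4 (MDR2) moves phosphatidylcholine to the outer leaflet, and Abcg5 and Abcg8 act as an obligate pair that exports sterols. The nuclear receptor FXR (Nr1h4) senses bile salts, and is known to raise Abcb11 and the repressor Nr0b2 (SHP), which in turn lowers Cyp7a1, the rate-limiting enzyme of bile acid synthesis.

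After removal of 7 WT and 4 C75S spots with over 50000 UMIs (unique molecular identifiers, each the count of 1 captured molecule), 2309 and 2163 spots remained, with 42246988 and 41674347 UMIs. Levels are given as CPM, the UMIs of a gene per 1000000 UMIs of the same spots, and compare a gene with itself only, since the number and efficiency of probes differ between genes. A spot covers several cells, and fewer cells of a type and less RNA per cell cannot be told apart. Of 6 hepatocyte markers 5 were in the tables, and these summed to 178500 CPM in WT and 186038 CPM in C75S (3 of 5 higher in C75S). Within each section the spots were ranked by (Cyp2f2 + 1)/(Cyp2e1 + 1), a periportal over a pericentral hepatocyte gene, and cut into 5 bins of 432 to 462 spots. Bin 1 has the lowest ratio (pericentral) and bin 5 the highest (periportal). The tables shared 1887 spot barcodes, which are positions of the slide design and not shared molecules.

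The positions of some members are given here, and a link between position and level was not tested. Abcg5 (chr17:84658234-84683011, minus strand) and Abcg8 (chr17:84676302-84700333, plus strand) lie head to head. Of the RefSeq starts of Abcg8, the one at 84683121 is separated from the start of Abcg5 by 109 bases, at chr17:84683012-84683120 of GRCm38.p6, shown on the plus strand because both genes of the sterol exporter start at its ends. In GENCODE the stretch also lies within the span of the Abcg8 gene, which begins farther upstream:

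Abcg5 to Abcg8: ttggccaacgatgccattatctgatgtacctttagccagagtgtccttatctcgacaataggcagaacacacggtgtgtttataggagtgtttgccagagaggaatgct

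The promoter windows of RefSeq, 250 bases before to 50 after each start, numbered 32851, of which 14 belonged to the 10 members. They were searched on both strands for the nuclear receptor hexamer AGGTCA followed after 1 base by its reverse complement, the arrangement known for FXR. No member window held it exactly (3 of all windows did, 0.00913%). With 1 mismatch allowed 2 member windows held it, against 27 of all windows (0.0822%), and both are shown with the match in capitals:

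Abcb11: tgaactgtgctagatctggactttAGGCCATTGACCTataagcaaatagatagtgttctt

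Slco1b2: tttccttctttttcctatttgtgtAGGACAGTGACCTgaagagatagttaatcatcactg

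The Abcb11 stretch is chr2:69342644-69342703 on the minus strand, and its match lies at -63 to -51 from the start. The Slco1b2 stretch is chr6:141629406-141629465 on the plus strand, with the match at -88 to -76. Both are GRCm38.p6 sequence upstream of the first exon. Hexamers in direct repeat spaced by 4 bases or by 1 base, and the E-box CACGTG, were found in 0 of the 14 member windows, and in 0.0152%, 0.0396% and 7.15% of all windows. These matches describe letters only, and binding was not measured.

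Between the sections the 5 uptake carriers and the 5 exporters differed in opposite directions. Since the members and lists were chosen with earlier results of these data known, the shares of all genes given here describe this split only. All 5 uptake carriers had lower CPM in the C75S section, where 60.1% of the 8729 genes with at least 500 UMIs were lower. All 5 exporters had higher CPM, where 39.9% of genes were higher, although Abcc2 differed by less than its counting error. The median log2 ratio of C75S over WT was -0.16 for the uptake carriers and 0.15 for the exporters, against -0.05 over all genes. Of the other genes listed for sinusoidal uptake with at least 500 UMIs, some of them enzymes, 4 were higher and 1 lower in C75S. Of the other canalicular transporters and flippases 3 were higher and 3 lower. With log2 ratios of 0.0069, -0.0021, 0.017 and -0.049, Slco2a1, Slco3a1, Slc27a5 and Atp7b lay within counting error of 0. These counts thus carry little direction. Most of the differences of the members were small. At 1.2-fold, Slco2b1 was lower (as were 14.0% of all genes) and Abcg8 was higher (as were 7.18%), and the other 8 members lay between. Scaled by TMM factors, the genes past 1.2-fold were 905 higher and 876 lower in place of 627 and 1226, 52.0% of all genes were above 0, and every member kept its side.

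**Figure D1:**
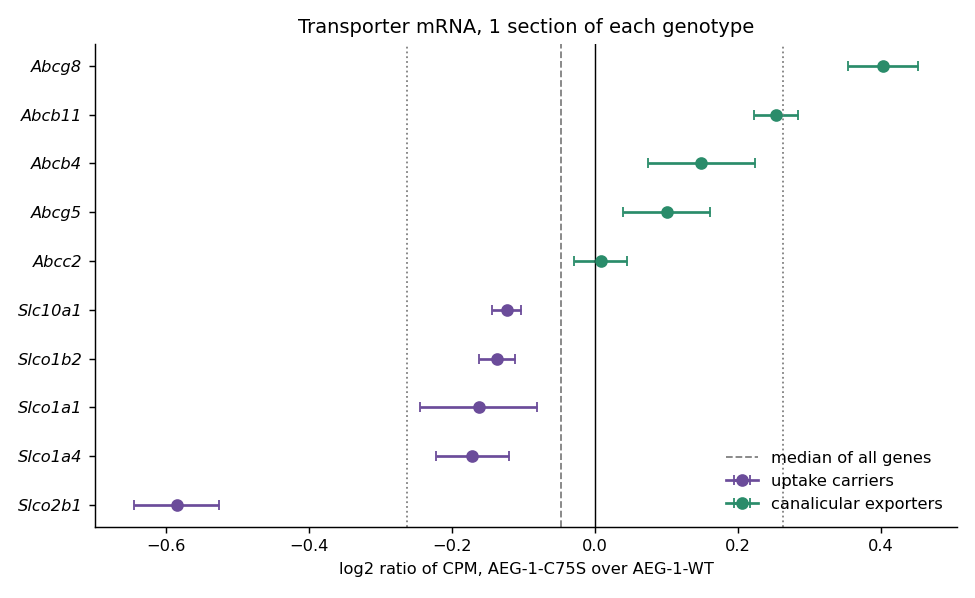
Log2 ratio of CPM, C75S over WT, for the 10 transporters over all kept spots of 1 section of each genotype, with bars for the 95% exact binomial counting interval. The dashed line marks the median of all genes (-0.05), the dotted lines mark 1.2-fold, and the uptake carriers lie to the left and the exporters to the right of 0, Abcc2 (0.01) next to it.

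Slc10a1 (chr12:80953183-80968705, minus strand), the sodium-dependent bile salt carrier, had 39676 UMIs in WT (939 CPM) and 35921 in C75S (862 CPM). Its log2 ratio was -0.12 (95% counting interval -0.14 to -0.10). At least 1 UMI of it was present on 99.96% and 99.91% of the spots. From bin 1 to bin 5 the level went 997, 978, 933, 898 and 891 CPM in WT and 861, 877, 880, 876 and 814 CPM in C75S. The levels were thus nearly flat along the lobule, and C75S was the lower section in each bin.

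Slco1b2 (chr6:141629518-141686646, plus strand), which encodes the only OATP1B carrier of mice, had 27244 UMIs (645 CPM) in WT and 24446 (587 CPM) in C75S, a log2 ratio of -0.14 (-0.16 to -0.11). Along the bins it went 914, 765, 633, 508 and 406 CPM in WT. In C75S it went 821, 704, 575, 467 and 361 CPM. The level dropped at each step towards the portal end, in both sections alike.

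Slco1a1 (chr6:141907282-141946962, minus strand), an OATP of broad specificity for organic anions, had 2570 UMIs in WT (60.8 CPM) and 2265 in C75S (54.3 CPM). Its log2 ratio was -0.16 (-0.24 to -0.08). The bins held 122.5, 84.4, 45.9, 33.5 and 19.8 CPM in WT and 112, 71.8, 43.9, 29.5 and 13.4 CPM in C75S. This was the steepest course of the 10 members, again down at each step towards the portal tract.

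Slco1a4 (chr6:141805440-141856199, minus strand), a related OATP, had 6617 UMIs (157 CPM) against 5795 (139 CPM), a log2 ratio of -0.17 (-0.22 to -0.12). Its bins ranged from 151 to 163 CPM in WT and from 128 to 145 CPM in C75S, without the slope of its neighbours. The 3 genes form a cluster of 317 kb on chromosome 6 with Slco1a4 in the middle, 119 kb from Slco1b2 and 51.1 kb from Slco1a1. Slco1a5 and Slco1a6, further paralogs, had 2 UMIs each in WT and 0 in C75S. The Slco1a genes are similar in sequence and the probe sequences were not analysed here, so some sharing of molecules between them was not tested.

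Slco2b1 (chr7:99657804-99711340, minus strand), an OATP known for steroid sulfates, differed most among the uptake carriers. It had 5807 UMIs in WT (137 CPM) and 3819 in C75S (91.6 CPM), 0.667 times the WT level, for a log2 ratio of -0.58 (-0.64 to -0.53). The bins held 150, 149, 139, 123 and 126 CPM in WT and 106, 92.0, 89.3, 83.7 and 87.2 CPM in C75S. The highest C75S bin lay below the lowest WT bin. Of the spots, 88.3% in WT and 77.6% in C75S held a UMI of it, and 34.0% and 23.8% after each spot was thinned to 3000 UMIs.

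Abcb11 (chr2:69238282-69342616, minus strand), the bile salt export pump, had 15468 UMIs in WT (366 CPM) and 18180 in C75S (436 CPM). The log2 ratio was 0.25 (0.22 to 0.28), just inside 1.2-fold, and 0.30 to 0.31, past it, with TMM factors, DESeq2 size factors, centring on the median gene or totals without the 20 most abundant genes. Bins 1 to 5 held 342, 347, 383, 363 and 395 CPM in WT and 412, 424, 433, 437 and 479 CPM in C75S. Each C75S bin was above each WT bin, and the periportal bin was the highest in both sections. Relative to Slc10a1, the carrier that brings its substrate in, the log2 ratio of Abcb11 was higher by 0.38 (0.34 to 0.41).

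Abcg8 (139 CPM in WT, 184 in C75S) rested on 5887 and 7676 UMIs and was 1.32-fold higher in C75S, with a log2 ratio of 0.40 (0.35 to 0.45). The bins held 166, 157, 144, 124 and 106 CPM in WT and 215, 192, 187, 162 and 166 CPM in C75S. Its partner Abcg5 had 4197 UMIs in WT (99.3 CPM) and 4437 in C75S (106 CPM), a log2 ratio of 0.10 (0.04 to 0.16). Abcg5 went 115, 107, 100, 90.3 and 84.6 CPM along the bins of WT and 120, 111, 103, 94.6 and 104 CPM along those of C75S. Abcg8 and Abcg5 therefore did not differ equally between the sections. Which of the starts of Abcg8 was used was not measured. The log2 ratio of Abcg8 exceeded that of Abcg5 by 0.30 (0.22 to 0.38), as the UMIs of Abcg8 per UMI of Abcg5 went from 1.40 in WT to 1.73 in C75S.

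Abcb4 (chr5:8893717-8959231, plus strand), the phospholipid floppase, had 2746 UMIs (65.0 CPM) in WT and 3003 (72.1 CPM) in C75S, a log2 ratio of 0.15 (0.07 to 0.22). Its bins lay between 59.6 and 75.7 CPM in WT and between 64.8 and 82.7 CPM in C75S, lowest in bin 4 of both. Abcc2 (chr19:43782192-43840740, plus strand), the exporter of conjugates, had 11728 UMIs (278 CPM) and 11631 (279 CPM). Its log2 ratio of 0.01 (-0.03 to 0.04) was within counting error of 0, the value of this ratio at equal levels. Along the bins Abcc2 went 298, 317, 292, 256 and 220 CPM in WT and 325, 307, 295, 254 and 214 CPM in C75S, so the sections nearly coincided in bins 3 to 5.

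**Figure D2:**
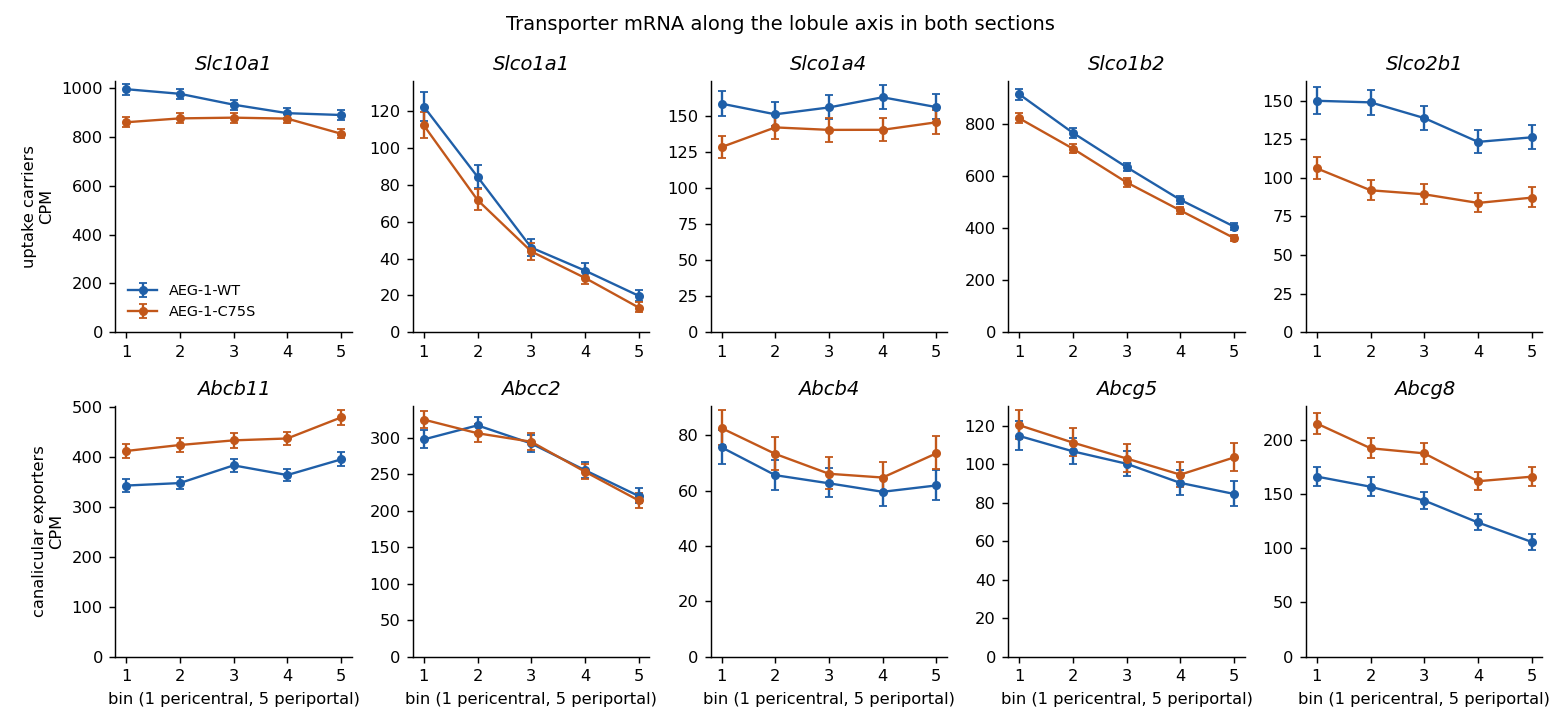
Level of each transporter in CPM in bins 1 (pericentral) to 5 (periportal) of both sections, with bars for the 95% exact Poisson interval of the UMIs and axes from 0. Slco1a1 and Slco1b2 drop steeply towards bin 5, Abcb11 is highest there, and the 2 curves of Slco2b1, Abcb11 and Abcg8 lie apart at every bin.

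The bins were then compared by a test, with the sections as the 2 replicates of the contrast between bin 5 and bin 1. The share of Alb mRNA rose from 9.56% to 15.7% of UMIs from bin 1 to bin 5 in WT and from 9.22% to 14.6% in C75S. The median of all genes on the CPM scale moved by -0.13 and -0.10 (log2), so log2 values of bin 5 over bin 1 are given relative to the bulk of genes, by TMM factors. Of 8609 genes, edgeR's quasi-likelihood test with the section as a block called 11.3% higher in bin 1 and 10.7% higher in bin 5 at an adjusted p under 0.05. Of the 10 members, 5 were called pericentral and 2 periportal. Many of the 8609 genes had fewer UMIs than any member. Among the 3714 genes with at least 1000 UMIs, 613 and 595 were called, with the same 5 and 2 counts of members.

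The pericentral members were Slco1a1, Slco1b2, Abcc2, Abcg8 and Abcg5. For Slco1a1 the log2 of bin 5 over bin 1 was -2.71 ± 0.08 (SE, adjusted p = 5.84e-215), with -2.50 in WT and -2.97 in C75S, a 5.67-fold and a 7.82-fold pericentral excess. Slco1b2 had -1.06 ± 0.05 (adjusted p = 1.59e-116), at -1.04 and -1.08 in the sections, a fold of 2.09 overall. Against these OATPs the exporters differed by less. Abcc2 stood at -0.40 ± 0.05 (adjusted p = 9.34e-14), from -0.31 in WT to -0.50 in C75S. It stood at -0.18 after thinning to 3000 UMIs per spot, where the call was lost (adjusted p = 0.163). In this setting the spots were also ranked anew by the thinned counts, so depth and bins changed together. Abcg8 stood at -0.39 ± 0.06 (adjusted p = 1.45e-10), with -0.52 and -0.27. Abcg5 was called at -0.21 ± 0.06 (adjusted p = 0.00486), with -0.31 in WT and -0.11 in C75S, where the counting interval (-0.25 to 0.02) reached 0. It was not called by DESeq2 (adjusted p = 0.671), with another axis (0.229) or with 10 bins (0.15).

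Abcb11 was the 1 exporter called periportal, at 0.33 ± 0.05 (adjusted p = 9.8e-11), with 0.33 in WT and 0.32 in C75S. Slco1a4 was called periportal at 0.19 ± 0.06 (adjusted p = 0.00467), with 0.11 in WT and 0.28 in C75S. The counting interval reached 0 in WT (-0.007 to 0.22) and not in C75S (0.16 to 0.40). The call of Slco1a4 was lost on totals (adjusted p = 0.370), in DESeq2 (0.628) and without the filter on low counts (0.0724). After thinning of the spots it was lost as well, at a value of -0.02. Slc10a1 (-0.01 ± 0.04, adjusted p = 0.952), Abcb4 (-0.11 ± 0.07, 0.265) and Slco2b1 (-0.15 ± 0.06, 0.0621) were not called. Slco2b1 was called pericentral in 6 of 12 alternatives (adjusted p of 0.00164 on totals, 0.00318 with 3 bins, 0.0159 as a trend over the bins, 0.0423 without the spot filter, 0.0461 with cuts pooled over the sections and 0.0483 with another axis), and stood at -0.0043 after thinning. A p above the threshold does not show that their levels were equal in both bins. The spread behind these p-values was pooled over all genes, as 4 sums leave 1 residual degree of freedom, and an exact test on 2 pairs alone could not go below 0.5. Over the alternatives the adjusted p of Slco1a1 ran from 1.01e-219 to 6.42e-11. On totals in place of TMM factors, 8 members were called pericentral and 1 periportal, with Slc10a1, Slco2b1 and Abcb4 added and Slco1a4 lost.

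**Figure D3:**
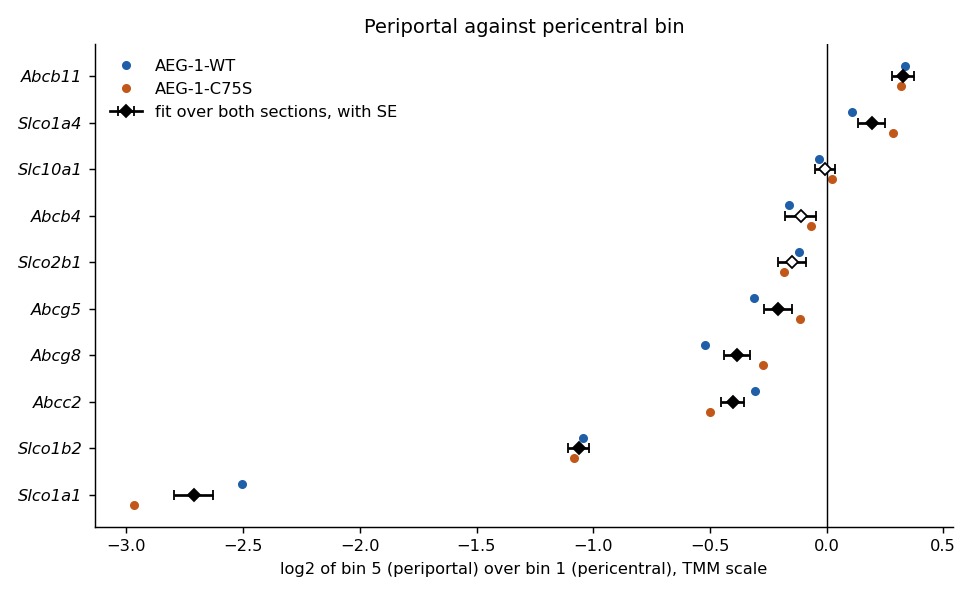
Log2 of bin 5 (periportal) over bin 1 (pericentral) on the TMM scale for each transporter, as the edgeR value over both sections with its SE (diamonds, filled where called) and in each section (circles). Slco1a1 at -2.71 and Slco1b2 at -1.06 lie far to the pericentral side and Abcb11 at 0.33 to the periportal side, and the sections lie close together for Abcb11 and Slco1b2.

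Whether the difference between the sections held along the lobule was followed bin by bin. The bins are ranks within a section, so a bin need not mark the same position in both sections. Bin 1 ended at an axis ratio of 0.061 in WT and 0.087 in C75S, and bin 3 at 0.296 and 0.357. All 5 uptake carriers were lower in C75S in 5 of 5 bins, as were 27.4% of the 8729 genes, many of them with fewer UMIs. Abcb11, Abcb4, Abcg5 and Abcg8 were higher in 5 of 5 bins, as were 15.6% of genes, and Abcc2 in 2 of 5. Only for Slco1b2, Slco2b1, Abcb11 and Abcg8 did the counting interval stay clear of 0 in every bin. It reached 0 in bins 1 to 4 of Abcb4 and Abcg5, in bins 1, 3 and 4 of Slco1a1, in bins 2 and 5 of Slco1a4 and in bin 4 of Slc10a1. The log2 ratio of Slco2b1 stayed between -0.70 (bin 2) and -0.50 (bin 1), and that of Abcb11 between 0.18 (bin 3) and 0.29 (bin 2). For Abcg8 it was 0.29 to 0.39 in bins 1 to 4 and 0.65 in bin 5, so that the ratio in bin 5 exceeded that in bin 1 by 0.28 (counting interval 0.12 to 0.44), beside a median of 0.02 over all genes. Abcg5 had 0.04 to 0.07 in bins 1 to 4 and 0.29 in bin 5, a difference of 0.22 (0.03 to 0.42). The same difference was 0.20 for Slco1a4 (0.04 to 0.37), -0.17 for Abcc2 (-0.29 to -0.04), -0.44 for Slco1a1 (-0.81 to -0.06) and 0.08 for Slc10a1 (0.01 to 0.15). The sizes depended on the setting. After thinning, with bins remade from the thinned counts, Abcg8 had 0.15, Abcg5 0.15, Slco1a1 -0.14, Abcc2 0.0049 and Slco1a4 0.34. With another axis Abcg8 had 0.43 and Abcg5 0.36. With cuts pooled over the sections Abcg8 had 0.21, Abcg5 0.16 and Slco1a1 -0.57. These intervals cover counting error only, and with 1 section per genotype the differences were not tested.

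**Figure D4:**
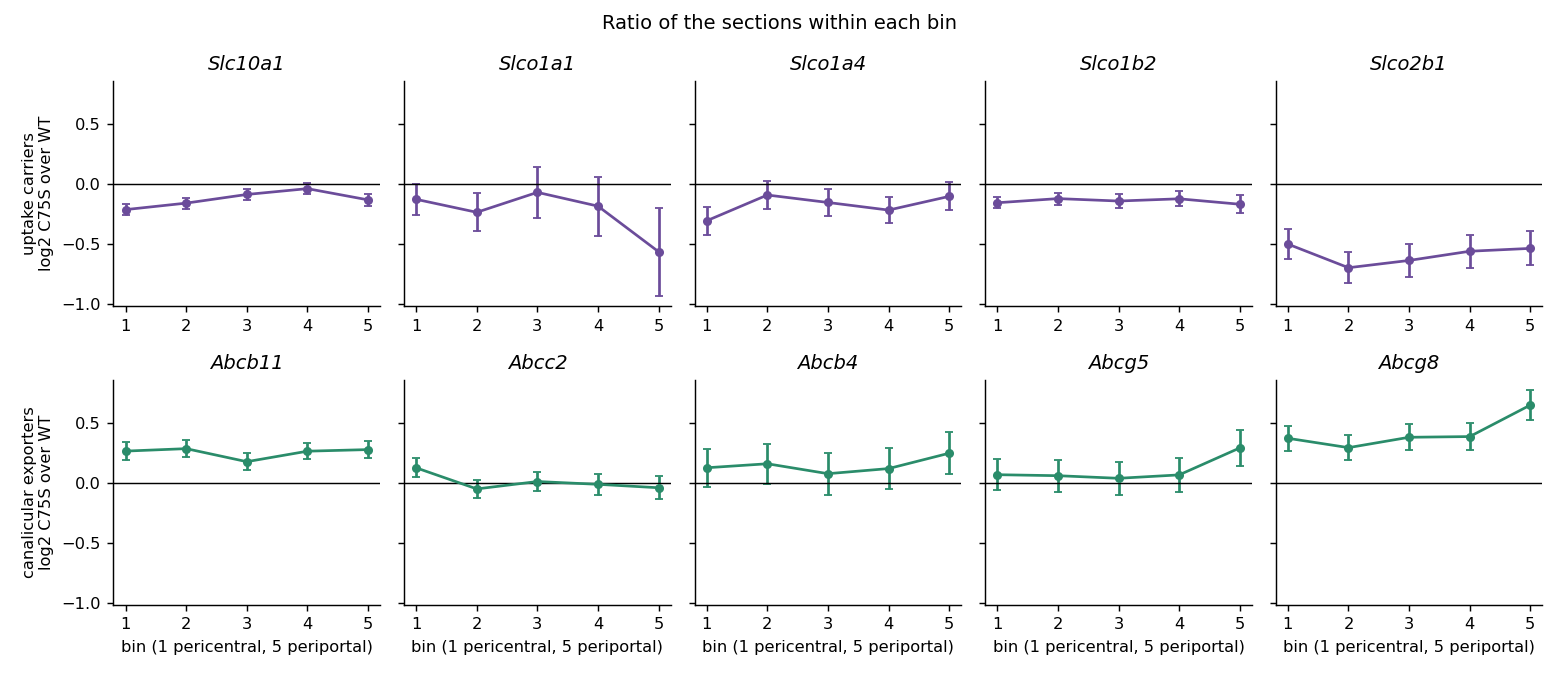
Log2 ratio of CPM, C75S over WT, in bins 1 (pericentral) to 5 (periportal) for each transporter, with bars for the 95% counting interval. The uptake carriers have values below 0 in every bin, and Abcg8 goes from 0.37 in bin 1 to 0.65 in bin 5.

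The spread of UMIs over the spots of a section, beyond depth, stood out for Slco1b2 and Slco1a1. For Slco1b2 the chi-square per degree of freedom of UMIs per spot around the section's mean share was 2.12 in WT and 2.11 in C75S, against medians of 1.02 and 1.02 over all genes. Around the mean share of the spot's own bin it was 1.24 and 1.203. For Slco1a1 it went from 1.54 to 1.07 in WT and from 1.59 to 1.15 in C75S. The other 8 members lay between 0.99 and 1.26 before the bins were taken into account, some of them at or under the median gene. Slco1a1 and Slco1b2 thus had most of their excess spread along the axis. At the same relative spread this measure grows with the UMIs per spot, so genes of unlike depth do not compare directly. Slco1b2 had a median of 11 UMIs per spot in WT and 10 in C75S, and Slco1a1 had 1 in both.

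Likeness of pattern was described by Pearson's r of log2(CPM + 1), centred in each section, over 20 bins of both sections (40 points that share their libraries and the ranking of spots) among 4558 genes with at least 2000 UMIs. Slco1a1 was most like Gulo (0.99), Pon1 (0.98) and Cyp2e1 (0.98), which itself sets the axis, and Slco1b2 was most like Cyb5a, Rgn and Ces3a (0.99 each). Slco1a1 and Slco1b2 had 0.97 with each other, while Slco1a4, which lies between them on the chromosome, had -0.22 and -0.25 with them. Abcc2 was most like Sult2a8 (0.95), Nr1i3 (0.93), the gene of the xenobiotic receptor CAR, and Lamp2 (0.93). Abcg8 was most like Sntb1 (0.93), Rdh7 (0.90) and Ces1d (0.90), and Abcg5 most like Kif1b (0.84), Lonp2 (0.82) and Crot (0.81), with 0.72 between the partners. Abcb4 was most like Hadha, Acad11 and Fabp1 (0.82 each), of which Hadha acts in fatty acid oxidation and Fabp1 binds fatty acids. Abcb11 was most like Kyat3 (0.78), Serpinf2 (0.77) and Uroc1 (0.77), and had -0.78 with Slco1a1. Slc10a1 was most like Ttr (0.83), Apoa2 (0.82) and Cd164 (0.80), and Slco2b1 was most like Arrdc3, Lpin2 and Fmo1 (0.78 each). Slco1a4 had no close match, with 0.49 for Cyp2c70, 0.47 for Cyp39a1 and 0.47 for Hif1a. All r rest on CPM and not on TMM factors, so the shift of the bulk of genes along the bins enters every pattern. Its part in r was not tested.

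Of 54 other genes of bile acid handling, 44 had at least 500 UMIs, and 22 of them were higher and 22 lower in C75S, 7 and 7 of them past 1.2-fold (7.18% and 14.0% among all genes). Their median log2 ratio was 0.00. The largest differences were those of Cyp7a1 and Nr0b2, followed by the canalicular scaffold genes Slc9a3r1 (-0.69), Cldn1 (0.63) and Cldn2 (0.55). Cyp7a1 had 7796 UMIs in WT (185 CPM) and 2815 in C75S (67.5 CPM), a log2 ratio of -1.45 (-1.51 to -1.39). Nr0b2 (SHP) had 1718 UMIs (40.7 CPM) and 3462 (83.1 CPM), a log2 ratio of 1.03 (0.95 to 1.11). Nr1h4 (FXR) itself stood at -0.04 (-0.09 to 0.01). Cyp8b1, another enzyme of synthesis, with under 500 UMIs, was higher in C75S (0.77, interval 0.50 to 1.04). Whether these differences and that of Abcb11 are linked was not tested. Ahr (-0.36) was past 1.2-fold lower, and Nr1i3 had -0.24.

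The steps of synthesis after Cyp7a1 varied less. Akr1d1, the steroid 5-beta-reductase, was lower (-0.27), Acox2, which acts on the side chain, was higher (0.28), and Baat, which conjugates bile acids, stood at -0.03 (-0.06 to 0.01). Among other canalicular proteins, Slc47a1, a cation exporter (-0.49), and Abcb1a, a drug exporter (-0.39), were lower, and Tmem30a, the partner subunit of flippases, was higher (0.27). Of other uptake proteins, Ephx1, an epoxide hydrolase also described as a bile acid carrier, was higher (0.37), and the bile acid CoA ligase Slc27a5 (0.02) differed little. Of the genes listed for canalicular scaffold and trafficking, the tight junction genes Cldn1 (0.63) and Cldn2 (0.55) and the membrane linker Msn (0.32) were higher. The scaffold Slc9a3r1 (-0.69) and the motor Myo5b (-0.39) were lower. The other membrane linkers, Rdx (-0.07) and Ezr (0.02), differed little. Which cells the Msn molecules came from was not measured. Abcc3, which exports conjugates back to the blood, had 6243 UMIs in WT and 7236 in C75S (0.23). Slc51b, a subunit of the basolateral bile salt exporter, had 67 and 155 UMIs. Its partner Slc51a had 0 in both, with a counting interval of 0 to 3.69 UMIs in each.

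**Figure D5:**
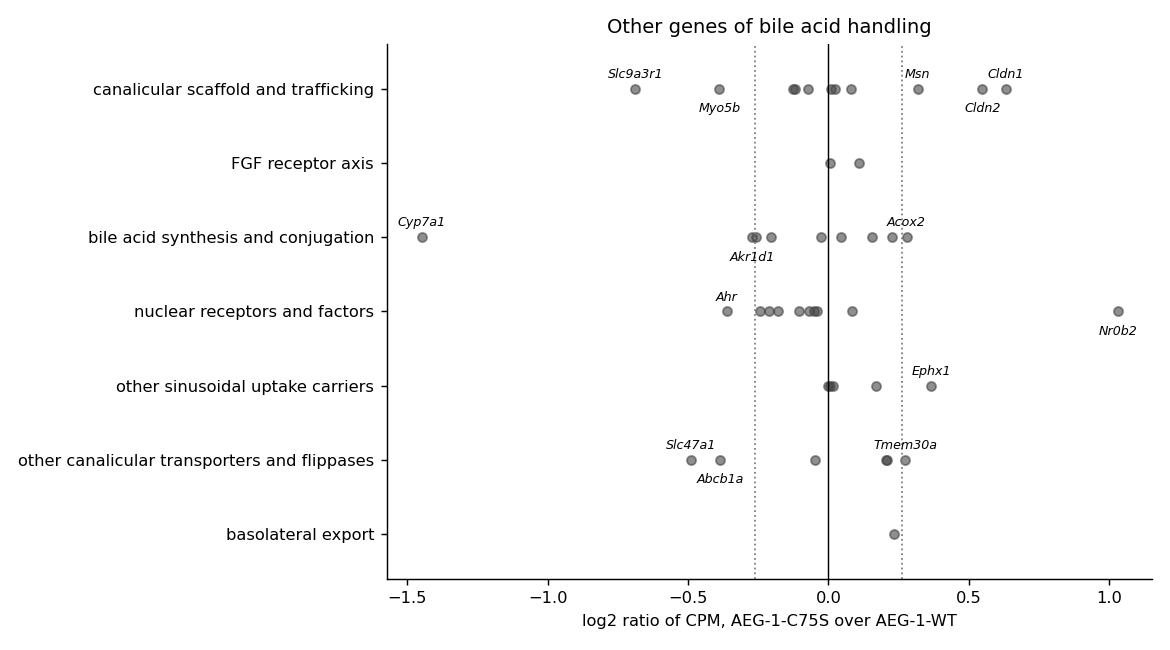
Log2 ratio of CPM, C75S over WT, of the 44 other genes of bile acid handling with at least 500 UMIs, by list, with names for the 14 past 1.2-fold (dotted lines). Cyp7a1 at -1.45 and Nr0b2 at 1.03 lie farthest out.

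Along the lobule 13 of the 44 genes were called pericentral, 5 periportal and 26 not called by edgeR's test (11.3% and 10.7% of all genes were called in these directions). The synthesis genes Cyp7a1 (log2 of bin 5 over bin 1 of -1.70 ± 0.07), Cyp7b1 (-1.44 ± 0.09), Cyp27a1 (-0.94 ± 0.05) and Hsd3b7 (-0.88 ± 0.05) were called pericentral, and Cyp2c70, which makes muricholic acids, periportal (0.15 ± 0.04). Of the receptors Ahr (-1.35 ± 0.09), Nr1i3 (-0.74 ± 0.05) and Nr1h4 (-0.33 ± 0.06) were pericentral and Hnf4a periportal (0.16 ± 0.05). The small periportal values of Cyp2c70 and Hnf4a came more from C75S than from WT. Cyp2c70 had 0.07 in WT and 0.23 in C75S, and Hnf4a 0.06 and 0.26. These calls were not followed through the alternatives, and hold on the TMM scale only as far as shown here. Cldn2 (-1.47 ± 0.07), Pdzk1 (-0.53 ± 0.06) and Abcg2 (-0.41 ± 0.11) were pericentral as well. Abcb1a (0.95 ± 0.15), the linker Ezr (0.79 ± 0.18) and the prostaglandin carrier Slco2a1 (0.47 ± 0.06) were called periportal, and their mRNA is known from bile duct or vessel cells too.

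Markers of other cells also differed between the sections. The summed level of 6 cholangiocyte markers was 129 CPM in WT and 96.7 CPM in C75S, and that of 6 portal connective tissue markers 198 and 99.2 CPM, with 0 of 6 higher in C75S in both lists. The 6 Kupffer cell markers summed to 1044 and 1376 CPM (6 of 6 higher), the 6 stellate cell markers to 605 and 750 CPM (5 of 6 higher), the 6 endothelial markers to 488 and 506 CPM (4 of 6 higher) and the 4 red blood cell markers found to 627 and 416 CPM (0 of 4 higher). Of the zone markers of hepatocytes, the axis genes included, the 6 periportal ones summed to 6053 CPM in WT and 5275 CPM in C75S (1 of 6 higher). The 3 pericentral ones summed to 8483 and 7899 CPM (0 of 3 higher). No marker of these lists was at 0. From bin 1 to bin 5 the cholangiocyte sum went from 30.4 to 263 CPM in WT and from 37.3 to 155 CPM in C75S, beside the members called between these bins. Without the 5% of spots richest in portal connective tissue and cholangiocyte markers, Slco2b1 and Abcg8 stayed past 1.2-fold. Of 8729 genes 708 were then higher and 1156 lower past it. In this setting 5 members were called pericentral and 2 periportal, beside 873 and 845 of 8431 genes. Only Abcc2 changed side between the sections (-0.01). The part of Kupffer, stellate and endothelial cells in the ratios was not tested.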

How the data were processed

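The deposited tables hold raw UMI counts per gene and spot, which the authors made with Space Ranger 2.0.1 on mm10 (the submitters' notes also name Seurat 4.3.0) from a probe-based assay of fixed tissue, without normalization. Per-sample columns of other samples numbered 0. Spots over 50000 UMIs or outside 100 to 7000 genes were removed, as in the study's methods (0 fell to the gene limits). For 11 repeated symbols the first row counted. UMIs were summed per section and bin in python 3.11.15 (numpy 2.4.6, scipy 1.17.1, pandas 2.3.3). Intervals are exact Poisson or binomial at 95% and cover counting error only. PCR duplicates are removed by the UMIs. Bins 1 and 5 were compared on 4 sums with edgeR 4.0.16 in R 4.3.3 (glmQLFit and glmQLFTest, TMM, section as a block, genes with at least 200 UMIs, Benjamini-Hochberg), with Cyp2f2 and Cyp2e1 left out of the counts of calls. The scripts were tested on simulated counts. DESeq2 1.42.0, other scalings, axes, bins, filters and thinning were alternatives. Where bins were compared after thinning, the axis was taken from the thinned counts.

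All members, pathway genes past 1.2-fold or called between bins (at most 3 per list and contrast), and the 3 genes most like each member were named, with others added after their values were seen. The members and lists were chosen with earlier results of these data known. Some genes of the pathway lists are not reported here. Gene positions come from GENCODE M21 and promoter windows from RefSeq, both GRCm38, the build of mm10. All 10 members matched by symbol and Ensembl identifier.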

Additional observations from a re-analysis of the deposited data

Results flagged for a closer look

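Slc10a1, the sodium-dependent bile salt carrier, had values of opposite sign in the sections between bin 1 and bin 5 on the TMM scale. Its log2 of bin 5 over bin 1 on that scale was -0.033 in WT and 0.021 in C75S. Both counting intervals reached 0 (-0.08 to 0.01 and -0.03 to 0.07), so neither section showed a direction. On the CPM scale the value was below 0 in both, at -0.16 (-0.21 to -0.12) in WT and -0.08 (-0.13 to -0.03) in C75S. The difference between the sections was not tested, since each genotype had 1 section.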

How the results depend on the processing

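No paired analysis was possible because each genotype had 1 section (between bins, the section was a block). Between the sections, Slco2b1 and Abcg8 stayed past 1.2-fold under all 10 alternatives, and every member kept its side but Abcc2, at -0.01 without portal spots. The 2 members higher past 1.2-fold under TMM factors, DESeq2 size factors, median centring and totals without the 20 most abundant genes were Abcg8 and Abcb11. Counts over all genes moved to 1035 higher after thinning and to 320 higher and 573 lower at 2000 UMIs. That last filter leaves fewer genes than the 8729 of the main setting, so its counts do not compare directly with the others.

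Between bins, totals gave 8 pericentral and 1 periportal member, with 1886 and 498 of all genes. Periportal members were also 1 in DESeq2 (295 and 261 of all genes), without a filter (924 and 879 of 14831 genes), and after thinning (287 and 279 of 3207 genes). At 1000 UMIs 613 and 595 of 3714 genes were called. Slc10a1 turned to 0.011 at 1000 UMIs, to 0.0082 with pooled cuts and to 0.022 without portal spots, and was 0.021 without the WT section and -0.033 without the C75S section. Slco1a4 turned to -0.021 after thinning. After thinning, the difference of the section ratios along the bins turned to 0.0049 for Abcc2 and was 0.24 for Abcb11, 0.18 for Slco1b2 and 0.56 for Abcb4. The causes were not tested. Slco1a1, Slco1b2, Abcb11 and Abcg8 kept their calls in all 12 alternatives with a test, although the adjusted p of Slco1a1 reached 6.42e-11 at 1000 UMIs. Protein identity between members was not run.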

Other observations

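The share of spots with a UMI was also read at equal depth. Thinned to 3000 UMIs, 43.4% of C75S spots and 32.8% of WT spots held a UMI of Abcg8, and 72.7% and 63.9% one of Abcb11. For Slco1a1 these shares were 14.8% in C75S and 16.3% in WT, and unthinned 52.6% and 58.3%.

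Some genes of bile acid handling fell under the 500 UMIs used for counts over all genes. Cyp8b1, the sterol 12-alpha-hydroxylase that makes cholic acid, had 180 UMIs in WT and 302 in C75S, a log2 ratio of 0.77 (0.50 to 1.04). Slc22a7, an organic anion carrier, had 183 and 127 UMIs (-0.51, interval -0.85 to -0.17). Abcc4, a basolateral exporter, had 103 and 99 UMIs (-0.04, interval -0.45 to 0.37). These ratios compare 1 section of each genotype and were not tested.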
